A study of Mus musculus with 12 samples.

Results

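The genes described here are 10 transcripts that mark or drive the change from an epithelial to a mesenchymal cell: the transcription factors Snai1, Snai2, Zeb1, Zeb2, Twist1, Twist2 and Prrx1, the cadherin Cdh2, the intermediate filament gene Vim and the matrix gene Fn1. They were taken by symbol from a table of 35856 rows, all 10 were found, and all 10 were among the 15663 genes that passed a filter of at least 1 TPM (a transcript level scaled for transcript length and library size) in at least 2 libraries. An epithelial cell sits in a sheet held together by the cadherin Cdh1, and a mesenchymal cell has lost that sheet and moves. The switch is best known from the primitive streak of the gastrulating embryo, where cells leave the epiblast to become mesoderm, the source of the heart. SNAI and ZEB proteins are zinc finger repressors that bind E-box motifs in epithelial genes such as Cdh1, TWIST proteins are helix-loop-helix factors that pair with E proteins, and Cdh2, Vim and Fn1 are among the products used to recognise the mesenchymal state.

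The cells were cardiac precursors (CPs), an early mesodermal stage on the way to heart muscle, grown from C57BL/6 mouse embryonic stem cells by 48 h as embryoid bodies, 43 h as reaggregated bodies with VEGF, Activin A and BMP4, and 32 h as a monolayer with VEGF, basic FGF and FGF10. Polyadenylated RNA was sequenced from 3 lines with the genotypes SUZ12-AID, Tir1; MTF2-AID, Tir1; and AID-JARID2, Tir1. AID is a degron, a tag through which the plant protein Tir1 and auxin direct a protein to degradation, and SUZ12, MTF2 and JARID2 are a core subunit and a pair of accessory subunits of Polycomb repressive complex 2 (PRC2), which methylates histone H3 at silenced developmental genes. For each line 2 libraries came from untreated cells and 2 from cells treated with 50 µM IAA (indole-3-acetic acid, called auxin below), which makes 6 groups of 2 and 12 libraries. All 3 lines carry Tir1, each tag has a single line, the labels do not say whether a line is 1 clone or when auxin was added, and no line without a tag was given auxin, so the tagged subunit, the line and auxin itself cannot be told apart. The 2 libraries of a group are described as biological replicates, but nothing tells if each had its own culture. P-values measure only the spread between libraries of a group, pooled over all 6 groups. A call in SUZ12-AID, whose replicates differed most, thus also rests on the closer replicates of the other lines.

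The genes lie on 5 chromosomes of the mouse build mm10 (GENCODE vM21 annotation, whole gene spans, all protein coding). Snai1 lies at chromosome 2, 167538195 to 167542814, plus strand, and Snai2 at chromosome 16, 14705852 to 14709385, plus strand. Zeb1 lies at chromosome 18, 5591860 to 5775467, plus strand, and Zeb2 at chromosome 2, 44983632 to 45117395, minus strand. Twist1 lies at chromosome 12, 33957671 to 33959829, plus strand, and Twist2 at chromosome 1, 91801461 to 91848028, plus strand. Prrx1 lies at chromosome 1, 163245119 to 163313710, minus strand. Of the markers, Cdh2 lies at chromosome 18, 16588877 to 16809246, minus strand, Vim at chromosome 2, 13573927 to 13582826, plus strand, and Fn1 at chromosome 1, 71585520 to 71653200, minus strand. The longest exon stretch shared letter for letter by paralogues was 23 bases between Snai1 and Snai2, 23 between Twist1 and Twist2 and 35 between Zeb1 and Zeb2. Of the exon bases of Twist2, 46.5% also lie in exons of Gm29100 on the other strand. The libraries mark strand, but the strand setting of the counting is not given in the sources used here, so reads of that pair may not be told apart.

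The values correspond to 10138920 to 17173072 assigned reads per library. Within groups, Pearson correlation over genes, which are not independent points, was 0.987 to 0.992. The untreated SUZ12-AID libraries stood furthest apart, with a median absolute log2 difference of 0.195 over all genes and 0.31 over the 10 genes, against 0.0884 to 0.144 over all genes in the other 5 groups. The RNA of the tagged genes does not measure the degron, which acts on the protein. Over the 6 groups Suz12 means ran from 60.3 to 119.9 TPM and Mtf2 means from 21.8 to 30.4 TPM, and Jarid2 rose with auxin in AID-JARID2 from 44.4 to 109 TPM (limma, adjusted p = 2.17e-05). As a check of the labelled stage, summed TPM of 14 cardiac precursor markers (Hand1, Gata4, Isl1, Tbx5 and others) lay between 1705 and 3075 in the 10 libraries other than auxin AID-JARID2, where the sums were 200 and 234. Hand1 alone made up most of the sum in untreated SUZ12-AID and untreated AID-JARID2 (values below), so the sum does not check the 14 markers jointly.

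PRC2 is known for binding at CpG-rich starts of developmental genes, so the CpG content of the promoters was read from RefSeq sequence (GRCm38.p6), where 6 of the 10 genes had 9 windows of 250 bases upstream of a start. Snai1 and the TWIST pair are shown because Snai1 had the smallest and Twist2 one of the largest falls with auxin in AID-JARID2, and because Twist1 and Twist2 moved in opposite directions in SUZ12-AID. The windows are chr2:167537945-167538194, chr12:33957421-33957670 and chr1:91801211-91801460, all on the plus strand and written 5′ to 3′ with each CpG in capitals.
Snai1: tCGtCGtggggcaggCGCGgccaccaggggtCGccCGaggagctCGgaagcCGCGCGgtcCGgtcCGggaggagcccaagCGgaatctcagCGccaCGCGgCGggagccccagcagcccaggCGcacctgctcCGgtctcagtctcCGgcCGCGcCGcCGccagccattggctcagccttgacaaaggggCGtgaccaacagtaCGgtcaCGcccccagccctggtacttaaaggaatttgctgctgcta
Twist1: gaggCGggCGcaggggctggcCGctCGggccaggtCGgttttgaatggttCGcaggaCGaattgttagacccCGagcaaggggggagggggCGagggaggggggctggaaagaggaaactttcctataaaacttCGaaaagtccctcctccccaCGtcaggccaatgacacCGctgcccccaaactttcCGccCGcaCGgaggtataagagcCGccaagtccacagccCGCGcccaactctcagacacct
Twist2: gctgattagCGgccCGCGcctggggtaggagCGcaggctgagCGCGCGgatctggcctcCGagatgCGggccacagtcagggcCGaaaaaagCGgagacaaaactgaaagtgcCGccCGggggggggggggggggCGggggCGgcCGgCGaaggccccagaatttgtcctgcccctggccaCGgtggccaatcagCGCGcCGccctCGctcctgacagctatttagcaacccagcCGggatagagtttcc

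The Snai1 window held 27 CpGs, more than 91.4% of 32851 windows of this length. The Twist2 window held 23, more than 86.7%, and the Twist1 window 18, more than 78.3%, where the median of all windows was 6. The window of Vim held 8, the 4 windows of Zeb2 held 6 to 14, and that of Prrx1 held 4. Snai1 and Twist2, with the most CpGs of the 6 genes, gave the smallest and the largest auxin change of these 6 in AID-JARID2 on the log2 scale of the test (values below). Cdh2, Zeb1, Snai2 and Fn1 had no window, and Snai2 fell more than Twist2. A link between CpG content and the auxin change was not tested. The E-box CAGGTG, searched on both strands, occurred in 1 of the 9 windows, that of Snai1, where it reads cacctg, and in 17.22% of all windows. A match to these letters is a description and not a binding site, and no histone mark or protein binding was measured in these libraries.

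In AID-JARID2, auxin lowered 9 of the 10 transcripts and raised 0. The test was limma on log2(TPM + 1) with Benjamini-Hochberg adjustment over all 15663 genes, and a call is an adjusted p under 0.05. Of all genes, 17.0% were called lower and 19.5% higher in this comparison. The 10 genes were chosen with earlier results of these data known, so setting 9 of 10 beside that share of lower genes is a description and not a test. With an unadjusted p under 0.05, 10 of the 10 genes were lower and 0 higher, and limma-voom on reads recovered from the TPM values also gave 10 and 0. In each of the 10 genes both auxin libraries lay below both untreated libraries. The median log2 fold change of the 10 genes was -1.28, against 0.01 over all genes, and single genes ran from -0.31 to -3.18. In SUZ12-AID auxin raised 1 gene, Twist1, and lowered 1, Twist2, where 15.1% of all genes were called higher and 4.05% lower. That split over all genes, 2362 higher and 635 lower, moved with the scaling of the libraries, becoming 2103 and 1548 after scaling by median of ratios, or 1605 and 1418 after quantile normalization. In MTF2-AID 0 of the 10 were called in either direction by limma and 0 by limma-voom, 1 (Snai2) had an unadjusted p under 0.05, and 0.0447% of all genes were called higher and 0.0192% lower. Medians of the 10 genes were 0.02 in SUZ12-AID and 0.06 in MTF2-AID, against 0.06 and 0.01 over all genes. These are bulk samples, in which fewer cells that make a transcript and less of it per cell cannot be told apart.

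**Figure D1:**
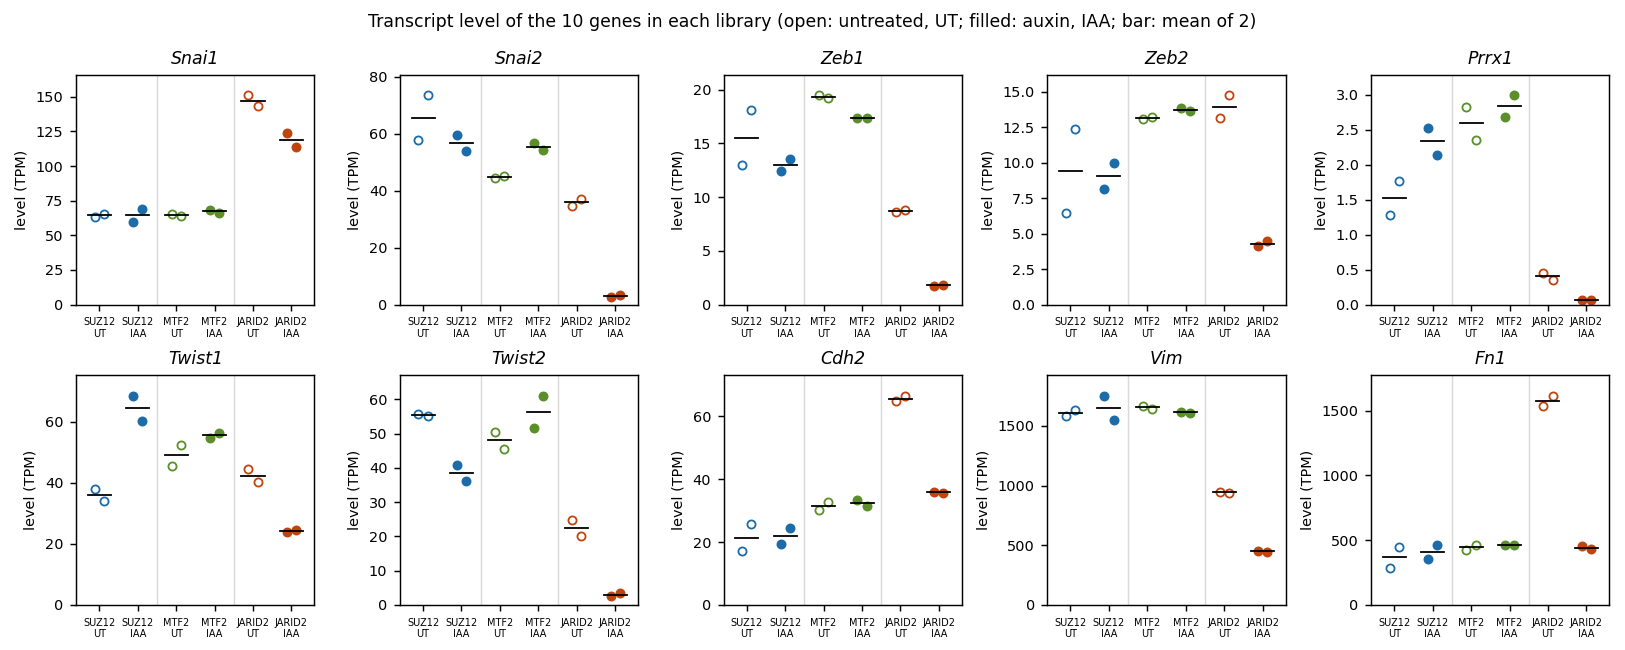
Level of each of the 10 genes in TPM (vertical axes, linear, from 0) in the 12 libraries, grouped by line and treatment (UT, untreated; IAA, auxin), with a bar at the mean of 2. Snai2, Twist2, Zeb1 and Prrx1 are lowest in the 2 auxin AID-JARID2 libraries, Snai1 stays above 110 TPM there, and Fn1 is highest in untreated AID-JARID2.

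Snai1, a repressor of Cdh1 needed for mesoderm to leave the primitive streak, measured 63.6 and 65.7 TPM in untreated SUZ12-AID and 59.9 and 69.2 TPM with auxin. In MTF2-AID it measured 65.1 and 64.2 TPM untreated and 68.6 and 65.9 TPM with auxin. In AID-JARID2 it measured 151 and 143 TPM untreated and 124 and 114 TPM with auxin. The 4 groups of the other lines thus sat together, and all 4 AID-JARID2 libraries lay above them. The fall in AID-JARID2 was 1.24-fold in means (log2 fold change -0.31, SE 0.0748, adjusted p = 0.00934). It lost its call without untreated AID-JARID2 replicate 1 (adjusted p = 0.0718) or without auxin replicate 2 (0.0863), over a range of 0.00112 to 0.0863 in 22 alternatives. Without auxin, Snai1 was 2.28-fold higher in AID-JARID2 than in SUZ12-AID or MTF2-AID, and with auxin it still had its second highest group mean there.

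Snai2 (Slug), the close relative of Snai1, gave the largest change of the set. It measured 34.8 and 37.1 TPM in untreated AID-JARID2 and 2.82 and 3.34 TPM with auxin. In SUZ12-AID the values were 57.7 and 73.5 TPM untreated and 59.7 and 54.1 TPM with auxin. In MTF2-AID they were 44.4 and 45.2 TPM untreated and 56.6 and 54.2 TPM with auxin. The SUZ12-AID groups overlap, those of MTF2-AID do not, and the 2 auxin AID-JARID2 libraries are far below all others. The fall in AID-JARID2 was 11.7-fold in means (log2 fold change -3.18, SE 0.114, adjusted p = 2.86e-08). The log2 fold change was -0.19 in SUZ12-AID (adjusted p = 0.291) and 0.30 in MTF2-AID (limma, adjusted p = 0.426), neither called. Without untreated replicate 1 the SUZ12-AID value was -0.37 and called (adjusted p = 0.0314, range over 22 alternatives 0.0314 to 0.906). Since Snai1 and Snai2 fell so unequally, the ratio of their TPM in AID-JARID2 went from 4.34 and 3.87 untreated to 43.9 and 34.1 with auxin. In the other lines it stayed between 0.894 and 1.47 in all 8 libraries.

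Zeb1 and Zeb2, large repressors with a zinc finger cluster at each end that act on Cdh1 and on polarity genes, both fell in AID-JARID2. Zeb1 measured 8.60 and 8.76 TPM untreated and 1.73 and 1.84 TPM with auxin there, a 4.87-fold fall (log2 fold change -1.80, SE 0.137, adjusted p = 5.05e-06). Its values were 13.0 and 18.1 TPM untreated and 12.4 and 13.5 TPM with auxin in SUZ12-AID, and 19.5 and 19.2 TPM untreated and 17.3 and 17.3 TPM with auxin in MTF2-AID. The 4 AID-JARID2 libraries were therefore the lowest for Zeb1, with or without auxin, and the auxin ones lowest of all. Zeb2 measured 13.2 and 14.7 TPM untreated and 4.11 and 4.47 TPM with auxin in AID-JARID2, a 3.25-fold fall (log2 fold change -1.50, SE 0.222, adjusted p = 0.000493). In SUZ12-AID it measured 6.43 and 12.4 TPM untreated and 8.13 and 9.95 TPM with auxin. In MTF2-AID it measured 13.1 and 13.2 TPM untreated and 13.8 and 13.7 TPM with auxin. Untreated AID-JARID2 thus had Zeb2 as high as MTF2-AID while its Zeb1 was lower. The untreated SUZ12-AID replicates differed for Zeb2 more than for any other member. Neither gene was called in MTF2-AID. In SUZ12-AID Zeb2 was not called, and Zeb1 (log2 fold change -0.23, adjusted p = 0.296) was called lower after quantile normalization (-0.39, adjusted p = 0.0171) and without untreated replicate 1 (-0.45, 0.0172), over a range of 0.0171 to 0.982. The Zeb1 to Zeb2 ratio, 1.25 to 2.02 in the 8 libraries of those lines, was 0.653 and 0.595 in untreated and 0.421 and 0.411 in auxin AID-JARID2.

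Twist1 and Twist2, helix-loop-helix factors of early mesenchyme, were the 2 genes of the set called in SUZ12-AID, and they went opposite ways. Twist1 rose there from 38.0 and 33.9 TPM to 68.5 and 60.4 TPM, 1.79-fold (log2 fold change 0.82, SE 0.0955, adjusted p = 0.000408). Twist2 fell from 55.7 and 55.0 TPM to 40.9 and 36.3 TPM, 1.43-fold (log2 fold change -0.51, SE 0.138, adjusted p = 0.027). Neither pair of groups overlaps, and the order of the paralogues turned over, with a Twist1 to Twist2 ratio of 0.682 and 0.617 untreated and 1.67 and 1.66 with auxin. The Twist1 call was lost when the SUZ12-AID libraries were fitted alone (adjusted p = 0.0535, lowest of 22 alternatives 8.93e-05). The Twist2 call was lost under 7 of 22 alternatives, among them the fits without untreated replicate 1 (0.07), untreated replicate 2 (0.0598) or auxin replicate 2 (0.177), over a range of 0.00826 to 0.212.

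In AID-JARID2 both TWIST transcripts fell. Twist1 went from 44.4 and 40.3 TPM to 23.8 and 24.5 TPM, 1.75-fold (log2 fold change -0.78, SE 0.0955, adjusted p = 0.000134). Twist2 went from 24.7 and 20.2 TPM to 2.53 and 3.43 TPM, 7.53-fold (log2 fold change -2.56, SE 0.138, adjusted p = 4.54e-07). Twist2 was already lowest in untreated AID-JARID2 among the untreated groups, and the ratio of Twist1 to Twist2 went from 1.80 and 1.99 to 9.44 and 7.13. In MTF2-AID Twist1 measured 45.6 and 52.4 TPM untreated and 54.6 and 56.4 TPM with auxin, and Twist2 50.6 and 45.4 TPM untreated and 51.5 and 61.0 TPM with auxin. Both auxin libraries lay above both untreated ones for each gene, and neither was called (adjusted p = 0.614 and 0.692).

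**Figure D2:**
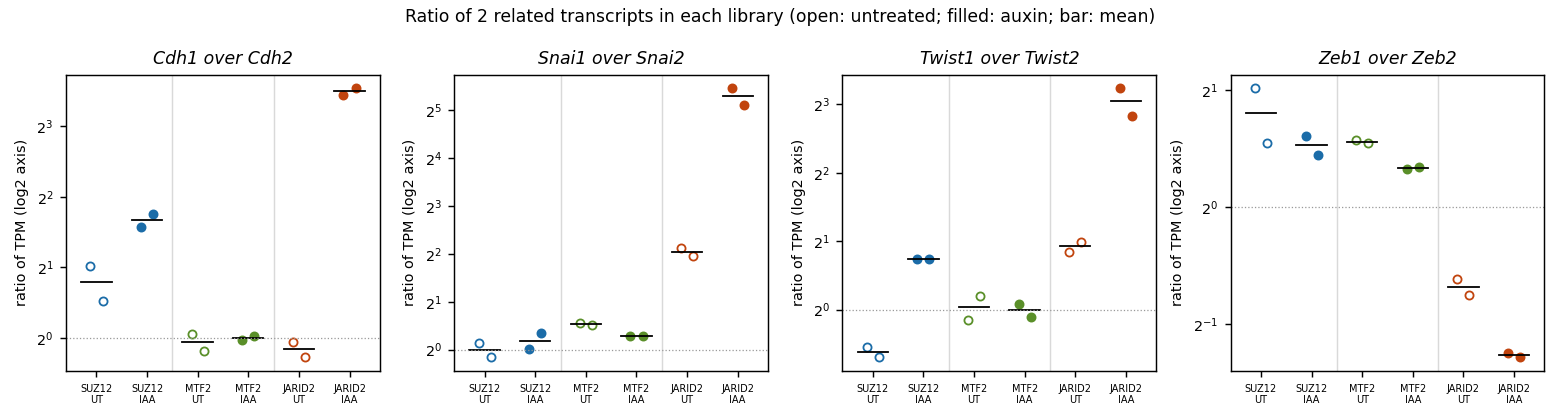
Ratio of the TPM of 2 related transcripts in each library (vertical axes, log2 scale; the dotted line marks equal levels), by line and treatment, with a bar at the mean. Snai1 over Snai2 and Cdh1 over Cdh2 are highest in auxin AID-JARID2, Zeb1 over Zeb2 is lowest there, and Twist1 over Twist2 crosses the line of equal levels in SUZ12-AID.

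Prrx1, a homeobox factor of lateral and limb mesenchyme, was the least abundant of the set. It measured 1.28 and 1.77 TPM untreated and 2.52 and 2.14 TPM with auxin in SUZ12-AID, and 2.83 and 2.35 TPM untreated and 2.68 and 2.99 TPM with auxin in MTF2-AID. In AID-JARID2 it measured 0.458 and 0.349 TPM untreated (25 and 17 recovered reads) and 0.0675 and 0.0581 TPM with auxin (4 and 4 reads). Exact Poisson intervals (95%, counting error only) of the untreated AID-JARID2 libraries were 0.296 to 0.676 and 0.203 to 0.559 TPM, and those of the auxin libraries 0.0184 to 0.173 and 0.0158 to 0.149 TPM. The intervals of the 2 conditions thus did not meet, and the ratio of means was 6.42. On the log2(TPM + 1) scale, which compresses such low values, the fold change was -0.40 (SE 0.168, adjusted p = 0.0921) and was not called. With a pseudocount of 0.1 in place of 1 it was -1.62 (adjusted p = 0.00242), and with limma-voom on recovered reads -2.55 (0.00182), over a range of 0.00182 to 0.304 in 21 alternatives. The rise of the mean in SUZ12-AID, 0.40 on the log2 scale, was not called by limma on log2(TPM + 1) (adjusted p = 0.131) and was called by limma-voom on recovered reads (0.65, adjusted p = 0.0123), over a range of 0.0123 to 0.84 in 21 alternatives.

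Cdh2, the cadherin of mesoderm, nervous system and heart muscle, measured 64.8 and 66.5 TPM in untreated AID-JARID2 and 36.0 and 35.7 TPM with auxin (log2 fold change -0.85, SE 0.159, adjusted p = 0.00207). In SUZ12-AID it measured 17.2 and 25.6 TPM untreated and 19.2 and 24.4 TPM with auxin, and in MTF2-AID 30.3 and 32.6 TPM untreated and 33.2 and 31.5 TPM with auxin. After its 1.83-fold fall, Cdh2 in auxin AID-JARID2 was thus still above every library of the other lines. Its epithelial counterpart Cdh1 (chromosome 8, 106603351 to 106670246, plus strand), which is not one of the 10 genes, rose there from 62.2 and 54.8 TPM to 393 and 417 TPM, 6.92-fold (log2 fold change 2.77, SE 0.142, adjusted p = 3.16e-07). In SUZ12-AID Cdh1 rose from 34.8 and 36.7 TPM to 56.9 and 82.7 TPM (log2 fold change 0.92, adjusted p = 0.00179), and in MTF2-AID it measured 31.5 and 28.5 TPM untreated and 32.4 and 32.0 TPM with auxin. The ratio of Cdh1 to Cdh2 therefore went from 0.96 and 0.824 to 10.9 and 11.7 in AID-JARID2 and from 2.02 and 1.43 to 2.96 and 3.39 in SUZ12-AID. It stayed between 0.874 and 1.04 in the 4 MTF2-AID libraries. The rise of that ratio in SUZ12-AID came with no called change of Cdh2 (log2 fold change 0.04, adjusted p = 0.902).

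Vim, the main intermediate filament of mesenchymal cells, had the highest TPM of the 10 in every library except untreated AID-JARID2, where Fn1 exceeded it. It measured 1584 and 1638 TPM untreated and 1754 and 1547 TPM with auxin in SUZ12-AID, and 1671 and 1646 TPM untreated and 1618 and 1612 TPM with auxin in MTF2-AID. In AID-JARID2 it measured 950.05 and 939 TPM untreated and 455 and 443 TPM with auxin. The 8 libraries of the other lines were nearly level, untreated AID-JARID2 lay well below them, and auxin lowered it a further 2.10-fold (log2 fold change -1.07, SE 0.052, adjusted p = 2.25e-07). The 95% interval of the log2 fold change ran from -0.08 to 0.15 in SUZ12-AID (estimate 0.03) and from -0.15 to 0.08 in MTF2-AID (estimate -0.04).

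Fn1, which encodes the matrix protein fibronectin needed for migration of mesoderm and heart precursors, was highest in untreated AID-JARID2. It measured 1538 and 1616 TPM there and 452 and 429 TPM with auxin, a 3.58-fold fall (log2 fold change -1.84, SE 0.18, adjusted p = 2.9e-05). In SUZ12-AID it measured 285 and 450.2 TPM untreated and 353 and 466 TPM with auxin, and in MTF2-AID 422 and 465 TPM untreated and 461 and 466 TPM with auxin. The auxin AID-JARID2 libraries thus reached the range of the other 2 lines and did not go below it, unlike Vim, Snai2, Zeb1 and Twist2. Fn1 was not called in SUZ12-AID (log2 fold change 0.18, adjusted p = 0.562). Leaving out its untreated replicate 2, the higher, gave 0.51 (adjusted p = 0.0259), and leaving out replicate 1 gave -0.15, over adjusted p values of 0.0259 to 0.971 in 22 alternatives.

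**Figure D3:**
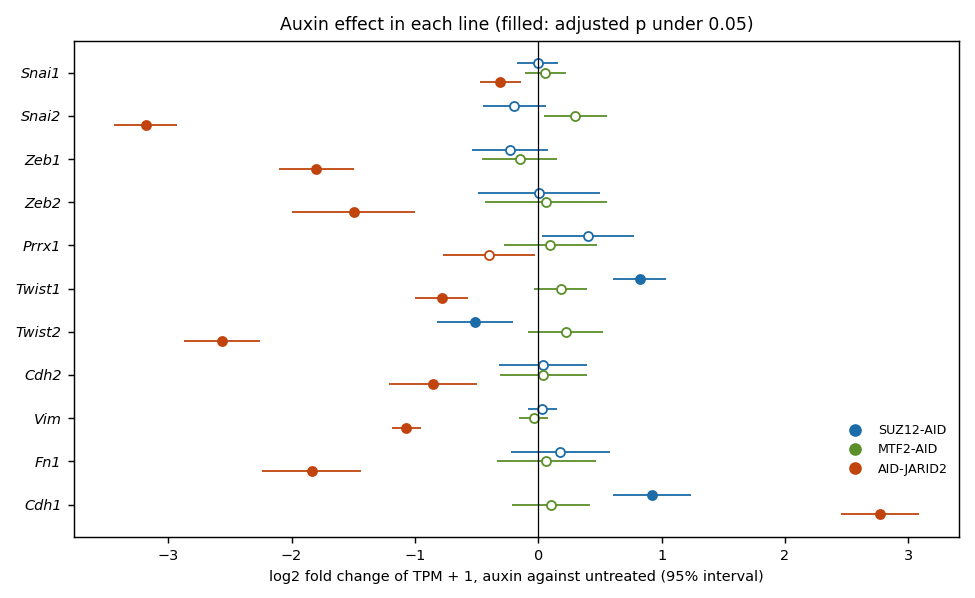
Log2 fold change of TPM + 1 with auxin against untreated (horizontal axis) and its 95% interval for the 10 genes and Cdh1 in each line; filled points have an adjusted p under 0.05. All 10 genes lie below 0 in AID-JARID2, Twist1 and Twist2 lie on opposite sides of 0 in SUZ12-AID, and intervals of MTF2-AID cross 0 for all but Snai2.

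The difference of auxin effects between lines was tested directly, with the same model. The effect in AID-JARID2 was lower than in SUZ12-AID for 9 of the 10 genes and higher for 0, where 15.0% of all genes were lower and 9.00% higher. The count was 7 to 9 over the alternatives. Prrx1, which passed the filter only through SUZ12-AID and MTF2-AID, is included in the 9 and lends that count no support. Twist1, which rose in one line and fell in the other, differed by -1.61 on the log2 scale (SE 0.135, adjusted p = 2.69e-05), and Snai2 by -2.99 (adjusted p = 1.68e-06). Snai1 did not pass (-0.30, 95% interval -0.54 to -0.06, adjusted p = 0.0657), but it was called with the replicate number as a block (adjusted p = 0.0305), after quantile normalization (0.0462) and without SUZ12-AID auxin replicate 1 (0.0192), over a range of 0.0192 to 0.217. Cdh2 passed (-0.90, adjusted p = 0.0167) and lost its call without SUZ12-AID auxin replicate 2 (0.0629), AID-JARID2 untreated replicate 2 (0.0543) or AID-JARID2 auxin replicate 2 (0.0537), over a range of 0.000557 to 0.0629. Prrx1 passed (-0.80, adjusted p = 0.0342) but lost its call in 11 of 21 alternatives, the replicate block (0.0673) among them (range 0.000809 to 0.137). Against MTF2-AID the effect in AID-JARID2 was lower for 9 genes and higher for 0, where 11.7% of all genes were lower and 12.6% higher, and the count was 7 to 10 over the alternatives. Here Prrx1 was the exception (-0.50, interval -1.03 to 0.03, adjusted p = 0.164), and it was called with a pseudocount of 0.1 (0.0156) and by limma-voom (0.003), over a range of 0.003 to 0.344. Cdh2 passed (-0.90, adjusted p = 0.016) and lost its call without MTF2-AID untreated replicate 1 (0.0561), MTF2-AID auxin replicate 1 (0.0551), AID-JARID2 untreated replicate 2 (0.0526) or AID-JARID2 auxin replicate 2 (0.052), over a range of 0.000206 to 0.0561. Snai1 passed (-0.36, adjusted p = 0.0315) and lost its call in 7 of 22 alternatives, each leaving out 1 library of these lines (range over all 0.00672 to 0.125). Between MTF2-AID and SUZ12-AID the effects of the TWIST pair differed: that of Twist1 was lower in MTF2-AID by 0.64 (log2 difference -0.64, adjusted p = 0.0142) and that of Twist2 higher by 0.73 (adjusted p = 0.0389), against 9.11% of all genes lower and 2.00% higher. With other scalings the split of that comparison, 1427 lower and 313 higher, was 1354 and 728 (median of ratios) or 1049 and 573 (quantile), and that of AID-JARID2 against SUZ12-AID, 2355 lower and 1410 higher, was 2125 and 2010 or 2058 and 2098. The call for Twist2 was lost in 10 of 22 alternatives (0.0164 to 0.144) and that for Twist1 in 3 of 22, median-of-ratios scaling (0.0512) among them (0.0106 to 0.055). Snai2 did not pass (0.49, adjusted p = 0.0811) and was called in 4 of 22 alternatives: median-of-ratios scaling (0.0204), quantile normalization (0.0431), limma-voom (0.0339) and without SUZ12-AID untreated replicate 1 (0.0111), over a range of 0.0111 to 0.234. The comparisons share libraries of a line and are not independent of each other.

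Without auxin the lines already differed in these genes, and untreated AID-JARID2 stood apart in both directions. Against untreated SUZ12-AID, 3 genes were higher (Fn1 4.29-fold, Cdh2 3.07-fold, Snai1 2.28-fold) and 5 lower (Prrx1 3.78-fold, Twist2 2.47-fold, Snai2 1.82-fold, Zeb1 1.79-fold, Vim 1.71-fold), with 15.2% of all genes higher and 12.4% lower. Zeb2 (log2 fold change 0.58, adjusted p = 0.0789) and Twist1 (0.23, adjusted p = 0.104) did not pass. Zeb2 was called with the replicate block (adjusted p = 0.0475), by limma-voom (0.0207) and without SUZ12-AID untreated replicate 2 (0.000659), over a range of 0.000659 to 0.455, and Zeb1 lost its call with the compared groups only (0.0801, lowest of 22 alternatives 1.67e-05). Prrx1 was under 1 TPM in all 4 AID-JARID2 libraries and passed the filter only through the other lines, so its lower level there is a description. It is included in the 5 lower genes above and the 4 lower genes below, and lends those counts no support. Against untreated MTF2-AID the same 3 genes were higher (Fn1 3.56-fold, Snai1 2.28-fold, Cdh2 2.09-fold) and 4 lower (Prrx1 6.41-fold, Zeb1 2.23-fold, Twist2 2.14-fold, Vim 1.76-fold), with 15.8% of all genes higher and 17.6% lower. Snai2 did not pass there (log2 fold change -0.31, adjusted p = 0.0607) and was called lower in 7 of 22 alternatives, both scalings (0.0293 and 0.0206) and limma-voom (0.0339) among them, over a range of 0.0136 to 0.236. Both comparisons use the same 2 AID-JARID2 libraries. Untreated MTF2-AID and SUZ12-AID differed in Twist1, higher in MTF2-AID (1.36-fold, adjusted p = 0.0221), and Snai2, lower there (1.46-fold, adjusted p = 0.0202), with 5.50% of all genes higher and 3.15% lower. The split there, 861 higher and 494 lower, became 760 and 736 after scaling by median of ratios, or 809 and 787 after quantile normalization. In this comparison Snai2 lost its call in 3 of 22 alternatives. They were the compared groups only (limma, adjusted p = 0.234) and leaving out either untreated MTF2-AID library (log2 fold change -0.52 and -0.54). Twist1 lost this call in 5 of 22 alternatives, among them median-of-ratios scaling (0.0867), quantile normalization (0.0819) and limma-voom (0.0736), over a range of 0.0167 to 0.242. Cdh2 did not pass (0.56, adjusted p = 0.06) and was called higher in 6 of 22, among them both scalings (0.0421 and 0.0318), the replicate block (0.0377) and limma-voom (0.0113), over a range of 0.00251 to 0.349. The count in that last comparison was 7 of 10 without untreated SUZ12-AID replicate 2, 1 without untreated MTF2-AID replicate 1 and 0 without its replicate 2, and it was 0 with these 4 libraries fitted alone.

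Over the 6 groups, the order of levels was thus not shared by the 10 genes. Group means spanned 45.1-fold for Prrx1, 21.3-fold for Snai2, 18.9-fold for Twist2 and 10.9-fold for Zeb1, and 2.28- to 4.29-fold for Snai1, Twist1, Cdh2, Zeb2, Vim and Fn1. Auxin AID-JARID2 was the lowest group for Vim, Zeb1, Zeb2, Snai2, Twist1, Twist2 and Prrx1. Untreated AID-JARID2 was the highest group for Cdh2, Zeb2, Snai1 and Fn1. Neighbours in the order overlapped most for Fn1, where the 5 groups below the highest ran into each other, and for Vim, where the first 4 did. For Twist1 no neighbouring groups overlapped.

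The genes with the most similar profiles were found by Pearson r of log2(TPM + 1) over the 12 libraries among 11184 genes, as a description, since libraries of a group share line and treatment. Snai1 was closest to Mesp1 (0.992), a helix-loop-helix factor of the first cardiac mesoderm, with Mesp1 at 461 and 429 TPM in untreated AID-JARID2, 278 and 242 TPM with auxin, and 36.4 to 58.8 TPM in the 8 libraries of the other lines. Fn1 was closest to Fgf10 (0.993), a growth factor gene. Vim was closest to Tnni1 (0.998), a troponin of embryonic heart and slow muscle. Snai2 was closest to Timp2 (0.994), an inhibitor of matrix metalloproteases, followed by Uaca and Fbln2, a matrix gene. Zeb1 was closest to Ano1 (0.998), Lama4, a laminin chain, and Fignl2. Twist2 was closest to Jdp2, Kalrn and Dok4 (0.991 to 0.995), Zeb2 to Dock9, Cdk16 and Dyrk1b (0.981 to 0.989), and Cdh2 to Egln3, Nin and Herc3 (0.975 to 0.981). Twist1 had the loosest matches, with Dpysl4, Sgcb and Kcnip3 at 0.955 to 0.961, and Prrx1, under 5 TPM in every group, was not matched. Within the set, r was 0.953 to 0.981 among Vim, Zeb1, Snai2 and Twist2, and 0.774 to 0.917 among Snai1, Cdh2 and Fn1. Other pairs ran in opposite directions, with Snai1 at -0.887 with Prrx1, -0.797 with Vim, -0.708 with Twist2 and -0.704 with Zeb1.

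Epithelial genes, the opposite pole of the transition, were counted over 35 symbols, 34 of them tested. In AID-JARID2, 28 rose and 4 fell (median log2 fold change 1.57, against 0.01 over all genes), while 9 of the 10 mesenchymal factors and markers fell. Beside Cdh1, those named by size were the tight junction genes Cldn6, from 53.2 to 464 TPM in means, and Marveld3, from 1.65 to 17.8 TPM, and the vesicle GTPase gene Rab25, from 4.06 to 35.0 TPM. The 4 that fell, named after their values were seen, were the simple epithelial keratins Krt8 (1019 to 339.6 TPM) and Krt18 (895 to 372 TPM), the desmosome gene Dsp and the transcription factor gene Elf3. In SUZ12-AID 29 rose and 0 fell (median 0.91; 32 and 0 at an unadjusted p under 0.05, 31 and 0 by limma-voom), while the 10 genes had 1 call in each direction. Examples were the claudins Cldn3 (21.5 to 92.0 TPM) and Cldn4 (183 to 549 TPM) and the keratin Krt7 (3.30 to 34.4 TPM). With the 4 SUZ12-AID libraries fitted alone 5 of these 34 genes rose and 0 fell, and called genes of the other lists described below were also fewer there (higher and lower: 1 and 0 of the other mesenchymal genes, 0 and 0 of the regulators, 2 and 0 of the TGF-beta genes, 4 and 0 of the intermediate filaments, 2 and 1 of the cardiac precursor markers, 2 and 0 of the pluripotent and epiblast markers). In MTF2-AID 1 rose, Krt8 (657 to 862 TPM), and 0 fell (6 and 8 at an unadjusted p under 0.05, 1 and 0 by limma-voom). For this list and those below, the shares of all genes called higher and lower were 19.5% and 17.0% in AID-JARID2. They were 15.1% and 4.05% in SUZ12-AID, and 0.0447% and 0.0192% in MTF2-AID.

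Other mesenchymal genes, a list of 35 with 31 tested, moved in both directions in AID-JARID2, where 17 fell and 4 rose (median -0.37). Col1a1, a fibrillar collagen chain, fell from 52.7 to 3.07 TPM and Pdgfrb, a growth factor receptor of mural and mesenchymal cells, from 42.2 to 3.31 TPM. Cdh11, the other mesenchymal cadherin, fell from 68.2 to 14.0 TPM and Acta2, smooth muscle actin, from 45.5 to 11.2 TPM. The 4 that rose, named after their values were seen, were Tagln, Thy1, Itgb1 and Col5a2. In SUZ12-AID 7 rose, among them Tnc (2.15 to 8.95 TPM) and Thy1 (7.07 to 15.9 TPM), and 4 fell, among them Pdgfrb (83.3 to 45.0 TPM). Of all genes, 15.1% were called higher and 4.05% lower there. In MTF2-AID 0 were called (limma; 3 higher and 5 lower at an unadjusted p under 0.05, 1 and 0 by limma-voom).

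**Figure D4:**
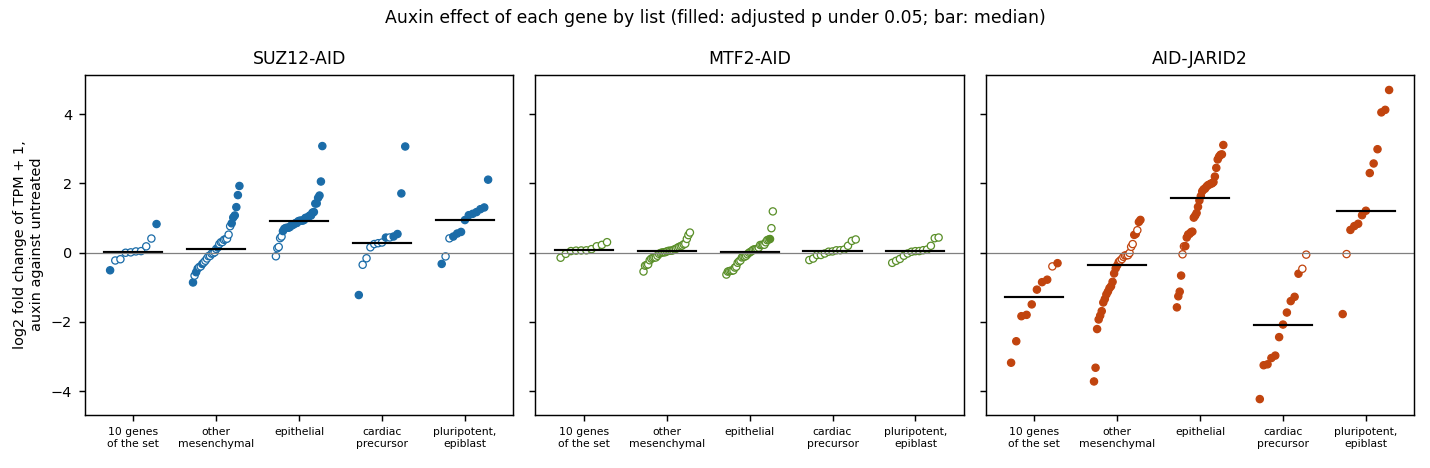
Log2 fold change of TPM + 1 with auxin (vertical axis) of every tested gene in 5 lists, in each line; filled points have an adjusted p under 0.05 and bars are medians. In AID-JARID2 the bars are at -1.28 for the 10 genes, 1.57 for epithelial genes, -2.08 for cardiac precursor markers and 1.21 for pluripotent and epiblast markers, and in MTF2-AID all bars lie near 0.

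Other regulators of the transition did not move one way. Of 22, 6 rose and 7 fell in AID-JARID2, where 19.5% of all genes were called higher and 17.0% lower. The third SNAI gene, Snai3, rose from 2.24 to 27.3 TPM while Snai1 and Snai2 fell, and the AP-1 gene Fosl1 and the ETS gene Etv4 rose from 0.542 to 10.3 TPM and from 62.3 to 171 TPM. The chromatin gene Hmga2 fell from 341 to 136 TPM. In SUZ12-AID 9 rose, with Snai3 (2.66 to 6.03 TPM), Foxc1, Fosl1 and Eomes the largest, and 3 fell. TWIST proteins act as dimers, and of 9 partners and ID inhibitors 4 rose and 3 fell in AID-JARID2. The partners Hand1 (1858 to 98.3 TPM) and Hand2 (47.5 to 4.18 TPM), which are themselves cardiac factors, fell, and the inhibitors Id1 (311 to 596 TPM) and Id2 (55.7 to 170.02 TPM) rose. In SUZ12-AID, where Twist1 rose, Hand2 rose from 48.2 to 159.9 TPM, Id3 rose slightly (611 to 714 TPM), and Hand1 (2421 to 1033 TPM) and the E protein gene Tcf3 (203 to 159.8 TPM) fell. Of 19 co-repressors and turnover factors of SNAI and ZEB proteins, 3 rose, among them Ctbp2 (47.5 to 113 TPM) and Ajuba (116 to 212 TPM), and 3 fell, among them Lats2 and Sin3b, in AID-JARID2, shares near those of all genes (19.5% higher and 17.0% lower). In SUZ12-AID 0 of them rose (0 at an unadjusted p under 0.05 and 0 by limma-voom) and 2, Ctbp1 and Ezh2, fell.

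Of the signals that act upstream of these factors, 17 TGF-beta pathway genes gave 6 higher and 4 lower in AID-JARID2. The shares of all genes were 19.5% and 17.0%. The ligand gene Tgfb1 fell from 166 to 82.9 TPM and the effector Smad3 from 41.1 to 20.3 TPM, and the co-repressor Skil rose from 34.2 to 69.0 TPM. In SUZ12-AID 6 rose, with the ligand Tgfb2 (7.20 to 20.3 TPM) and the target Ctgf (13.0 to 30.5 TPM) the largest, and 2 fell. Of 13 genes listed for the signals of gastrulation, which are not all ligands, 7 fell and 3 rose in AID-JARID2. The genes named next for this line are all among the 7 that fell. Bmp4 fell from 331 to 25.1 TPM, Bmp2 from 64.1 to 7.68 TPM, and Msx1 (239 to 36.3 TPM) and Msx2 (207 to 21.1 TPM) of the same list also fell. BMP target genes were not counted as a list. The genes named here went both ways, with Msx1 and Msx2 lower and Id1 and Id2 higher (values above). A change of BMP signalling was not tested. In SUZ12-AID 3 rose, among them Nodal and its co-receptor Tdgf1 (26.1 to 58.2 TPM), and 3 fell, among them Bmp4 (284 to 180.0 TPM) and Msx1. In MTF2-AID 0 genes of the regulator, partner, co-repressor, TGF-beta and gastrulation lists were called by limma or limma-voom, and at an unadjusted p under 0.05 the counts, higher and lower, were 5 and 2, 2 and 0, 0 and 0, 0 and 1, and 3 and 0.

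Families of Cdh2 and Vim were counted too. Of 12 classical cadherins and catenins tested, 2 rose in AID-JARID2, Cdh1 and Ctnnd2, the latter named after its value was seen. The 3 that fell, beside Cdh2 itself, were Cdh11, Cdh3 (28.9 to 14.5 TPM) and Cdh4 (21.7 to 14.5 TPM). Both counts of these 12 genes are not far from the shares of all genes (19.5% higher and 17.0% lower). Of 14 other intermediate filament genes, 8 rose and 6 fell. While Vim fell, the neural filament genes Nes (55.6 to 221 TPM), Nefl (18.9 to 81.9 TPM), Nefm (3.34 to 19.6 TPM) and Ina (17.6 to 74.0 TPM) rose, and Krt8 and Krt18, also counted among the epithelial genes, fell. In SUZ12-AID, where Vim was not called, 10 of these 14 rose, among them Prph (34.7 to 77.8 TPM), Krt19 (92.9 to 188 TPM) and Ina (5.45 to 15.2 TPM), and 2 fell.

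Markers of other cell types moved with the 10 genes in AID-JARID2. Of 13 cardiac precursor markers tested, 11 fell and 0 rose with auxin (0 rose at an unadjusted p under 0.05 and 0 by limma-voom; median -2.08), and the summed level of the list went from 2335 and 2398 TPM to 200 and 234 TPM. Hand1 made up most of the untreated sum. Of 13 pluripotent and epiblast markers, 11 rose and 1, Klf4, fell (median 1.21), and the sum went from 1186 and 1189 TPM to 3916 and 4004 TPM. Sox2 rose from 5.07 to 98.8 TPM, Utf1 from 30.7 to 820 TPM and Fgf5, a gene of the epiblast, from 4.00 to 85.6 TPM. Of the 9 markers of cranial and lateral mesoderm 6 fell and 0 rose (0 rose at an unadjusted p under 0.05 and 0 by limma-voom), their sum going from 1145 and 1159 TPM to 320 and 372 TPM. Neural markers summed to 68.8 and 70.8 TPM untreated and 295 and 309.7 TPM with auxin. Most of these sums was Nes, and only 3 of the 7 markers were tested, all 3 called higher. In SUZ12-AID 10 of the 13 pluripotent and epiblast markers rose and 1, Lin28a, fell (median 0.94), with sums of 508 and 512 TPM untreated and 611 and 681 TPM with auxin, and of the cardiac precursor markers 5 rose and 1, Hand1, fell. Endothelial markers rose there in 9 of 11 (3 with the SUZ12-AID libraries fitted alone), from sums of 116 and 140.3 TPM to 180 and 187 TPM. In MTF2-AID their sums were 133 and 136 TPM untreated and 79.6 and 88.0 TPM with auxin (median log2 fold change -0.76), with 0 of 11 called by limma, 10 lower at an unadjusted p under 0.05 and 3 lower by limma-voom. By summed TPM, untreated AID-JARID2 already had more pluripotent and epiblast marker RNA than the other untreated groups, whose sums were 508 to 642 TPM. Single markers went both ways. Of the 13, 7 were called higher and 2 lower than in untreated SUZ12-AID (median log2 fold change 0.38, with 15.2% and 12.4% of all genes). Against untreated MTF2-AID 6 were higher and 5 lower (median 0.04, with 15.8% and 17.6% of all genes). In MTF2-AID sums of cardiac precursor markers were 1780 to 1868 TPM and of pluripotent and epiblast markers 614 to 663 TPM over its 4 libraries, and 0 of either list were called by limma or limma-voom (2 and 2 higher at an unadjusted p under 0.05). Smooth muscle and fibroblast markers, which apart from Myh11 and Cnn1 are also on the mesenchymal list, summed to 181 to 289 TPM in all 12 libraries. That sum hides changes in both directions. Of 8 tested in AID-JARID2, 3 rose and 2 fell (19.5% and 17.0% of all genes). The remaining lists were low in AID-JARID2: sums were 0.905 to 4.21 TPM for endoderm, with Afp at 0 in both conditions, 5.70 to 11.2 TPM for blood, with Hba-x and Hbb-y at 0, 11.4 to 16.6 TPM for surface ectoderm, 19.0 to 38.8 TPM for endothelium, with Emcn at 0, and 54.2 to 73.7 TPM for neural crest, with Tfap2b at 0. Trophoblast markers, mostly Cdx2 and Plac1, summed to 161 and 173 TPM untreated and 13.0 and 14.5 TPM with auxin. The part of these cell types in the changes of the 10 genes was not tested.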

How the data were processed

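Polyadenylated RNA of 12 mouse libraries (3 lines, untreated or with auxin, 2 libraries per group) was sequenced from stranded dUTP libraries. The authors deposited 1 table of TPM values, and per the submitters' processing notes STAR 2.6.1d and mm10 were used; the program and annotation behind the TPM, and the strand setting, have no record in the labels or file header. A gene was kept if 2 or more libraries had 1 TPM or more (15663 of 35856 passed), log2(TPM + 1) was fitted with limma 3.58.1 (R 4.3.3; 1 term per group, empirical Bayes with a trend, 6 residual and 3.9 prior degrees of freedom), and p-values were adjusted over all genes kept with the Benjamini-Hochberg method for 9 comparisons. Fold changes on this scale understate changes of low genes. The fit was tested on simulated data. The simulation gave all groups the same spread between replicates, so it does not cover the wider spread seen in SUZ12-AID. TPM values were turned into whole reads per gene, which came out whole for 100% of values above 0 within 0.001 reads, and limma-voom on them was added after seeing the data. Reads carry no molecular identifiers, so Poisson intervals cover counting error only.

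The 10 genes and the gene lists were chosen with earlier results of these data known. From each list up to 4 called genes per line were named, those with the largest fold change, no overlap of the groups and at least 5 TPM in the higher one; Cdh1 was always named, and up to 3 genes of most similar profile per member. Alternatives were pseudocounts of 0.1 and 5, no filter, a filter of 5 TPM, other scalings, fits of the compared groups only, a variance weight per line, a replicate block, and each library left out.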

Additional observations from a re-analysis of the deposited data

Results flagged for a closer look

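The response to auxin differed between lines, by a test of the difference itself (limma, adjusted p under 0.05), for these members. Values are differences of log2 fold changes.

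AID-JARID2 minus SUZ12-AID gave -2.99 for Snai2, -2.05 for Twist2, -2.02 for Fn1, -1.61 for Twist1, -1.57 for Zeb1, -1.50 for Zeb2, -1.10 for Vim, -0.90 for Cdh2 and -0.80 for Prrx1. Of these, Twist1 rose in SUZ12-AID and fell in AID-JARID2. The calls for Cdh2 and Prrx1 are lost under some alternatives, and Prrx1 passed the filter only through SUZ12-AID and MTF2-AID.

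AID-JARID2 minus MTF2-AID gave -3.48 for Snai2, -2.78 for Twist2, -1.90 for Fn1, -1.65 for Zeb1, -1.56 for Zeb2, -1.03 for Vim, -0.96 for Twist1, -0.90 for Cdh2 and -0.36 for Snai1, with the calls for Cdh2 and Snai1 lost under some alternatives.

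MTF2-AID minus SUZ12-AID gave -0.64 for Twist1 and 0.73 for Twist2. Each of these calls is lost under some alternatives, and Snai2 is called under 4 of 22. Each line enters 2 of the 3 comparisons, so they are not independent.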

How the results depend on the processing

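In AID-JARID2, Cdh2, Vim, Zeb1, Zeb2, Snai2, Twist1, Twist2 and Fn1 kept their calls under 22 of 22 alternatives, and the count of called members was 8 to 10. In SUZ12-AID the 2 calls became 1 with no filter, 1 with a variance weight per line, 1 with the replicate block, 0 with the compared groups only, 3 with quantile normalization (Zeb1 gained) and 3 with limma-voom (Prrx1 gained), and leaving out 1 library gave 1 to 3. Called genes there, 2997 in all, were 156 with compared groups only, 1194 with the weight and 1374 to 3428 with 1 library left out, the lowest without auxin replicate 2. In MTF2-AID 10 genes were called, against 6 and 30 with pseudocounts of 0.1 and 5, 21 with no filter, 16 with median-of-ratios scaling, 17 with quantile normalization, 0 with compared groups only, 164 with the weight, 4 with the replicate block, and 5 to 38 with 1 library left out. For MTF2-AID minus SUZ12-AID the 2 members became 1 with a pseudocount of 0.1, 1 with no filter, 1 with the weight, 1 with the replicate block, 3 with quantile normalization, 3 with limma-voom and 0 to 2 with 1 library left out, and the 1740 genes 1028 with compared groups only, 1103 with the weight and 936 to 2462. Between untreated lines, AID-JARID2 against SUZ12-AID (4319 genes) gave 1784 with compared groups only and 2356 to 5634 with 1 library left out. MTF2-AID against SUZ12-AID (2 members, 1355 genes) gave 0 and 1 with compared groups only, 845 genes with the weight, and 0 to 7 members and 522 to 4089 genes with 1 library left out. AID-JARID2 against MTF2-AID (5233 genes) gave 3399 to 6114. The cause of these shifts was not tested.

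Signs that turned belonged to changes that were not called. In SUZ12-AID, with median-of-ratios scaling Cdh2 was -0.048, Vim -0.062 and Zeb2 -0.078, with quantile normalization Cdh2 was -0.063 and Zeb2 -0.22, and with a pseudocount of 5 Zeb2 was -0.0078. In MTF2-AID Vim was 0.026 with quantile normalization. For MTF2-AID minus SUZ12-AID, Cdh2 was -0.000188 with a pseudocount of 0.1 and -0.012 with limma-voom, Vim 0.015 with median-of-ratios scaling and Prrx1 0.078 with quantile normalization. For untreated MTF2-AID against SUZ12-AID, Vim was -0.036 (median of ratios) and -0.034 (limma-voom), and Snai1 -0.077 (median of ratios), -0.060 (quantile) and -0.076 (limma-voom). With 1 library left out, ranges in SUZ12-AID were -0.23 to 0.32 for Cdh2, -0.058 to 0.12 for Vim, -0.42 to 0.43 for Zeb2, -0.11 to 0.096 for Snai1 and -0.15 to 0.51 for Fn1. In MTF2-AID they were -0.010 to 0.095 for Cdh2 and -0.0050 to 0.13 for Fn1. For MTF2-AID minus SUZ12-AID they were -0.27 to 0.28 for Cdh2, -0.16 to 0.020 for Vim, -0.14 to 0.30 for Zeb1, -0.37 to 0.48 for Zeb2, -0.041 to 0.16 for Snai1 and -0.44 to 0.21 for Fn1. For untreated MTF2-AID against SUZ12-AID they were -0.023 to 0.024 for Snai1 and -0.023 to 0.63 for Fn1.

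Same-numbered libraries shared little deviation across treatments: their deviations correlated at 0.0958 in SUZ12-AID, -0.0388 in MTF2-AID and 0.00803 in AID-JARID2. With 2 libraries per group this cannot tell whether same-numbered libraries were handled together, and the labels do not say. With the replicate block the AID-JARID2 count stayed at 9, and Twist2 in SUZ12-AID was no longer called (adjusted p = 0.059, range over alternatives 0.00826 to 0.212). Among differences, the block lost Twist2 in MTF2-AID minus SUZ12-AID (0.0763) and Prrx1 in AID-JARID2 minus SUZ12-AID (0.0673) and gained Snai1 in the latter (0.0305). Between untreated lines it gained Zeb2 in AID-JARID2 against SUZ12-AID (0.0475) and Cdh2 in MTF2-AID against SUZ12-AID (0.0377), and it changed no other member's call. Where 1 library of a group was left out, the other is assumed to vary like the rest. Depth limits Prrx1, with 4 and 4 reads in auxin AID-JARID2.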
